A study of Homo sapiens with 28 samples.

Results

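The genes described here encode the nuclear pore complex, the large ring of proteins set into the nuclear envelope through which proteins and RNA pass. The list held 31 genes. Each was found by its symbol in the annotation of the array platform, and 30 of them had a probe set that named no other gene, out of 22357 such genes on the array. The remaining one, NUP62, shared its probe set with IL4I1 and is given no value. A gene was tested where its log2 intensity was above 5 on at least 4 of the 28 arrays. This left 9285 genes, among them 28 pore genes. NUP35 and NUP54 did not reach that level, and NUP50 reached it mostly at 4 h, with 12 of 14 arrays above 5, against 1 of 14 at 24 h. A gene that passes in this way had to be higher at 4 h. The main counts of called genes that include NUP50 are therefore also given without it. Other counts and means over the 28 pore genes include it unless stated.

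The cells were CHL-1, an established line of human melanoma cells, taken from a public cell bank and known to the submitters as sensitive to BAY1238097. BAY1238097 inhibits BET proteins, which bind acetylated histones through their bromodomains and help RNA polymerase to transcribe many genes. Cells received the compound at 75 nM or at 468 nM, which the submitters name as its IC50 and IC90, or DMSO, the solvent alone, and RNA was collected after 4 h or 24 h. There were 5 arrays for each dose at each time and 4 arrays for DMSO at each time. Each array was hybridised with biotin-labelled total RNA from 1 sample. All groups were of the same line, so the values describe 1 cell line only. The labels do not name the cultures behind the samples, and the p-values therefore reflect no more than how far these samples varied, possibly for technical reasons alone.

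The pore is built from repeated copies of a few subcomplexes. The Y complex forms the outer rings on both faces of the envelope, the inner ring lies between them, and transmembrane proteins anchor both to the membrane. Proteins with repeats of phenylalanine and glycine fill the central channel and bind the transport receptors, called importins and exportins, whose loading and unloading is set by the small GTPase Ran. The cytoplasmic side carries the last steps of mRNA export, and the nuclear basket reaches into the nucleus, where it touches chromatin and receives mRNA. The Y complex and its partners are also known for roles in mitosis, and growing cells build new pores throughout interphase.

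All values are log2 of the deposited intensity, and each difference is a log2 difference with its standard error from limma. Median log2 intensity lay between 2.44 and 2.49 on every array, since the authors' normalisation equalises the arrays, and a difference is therefore relative to the other transcripts of the array. A gene was called changed where the p-value adjusted by the Benjamini-Hochberg method over all 9285 genes was below 0.05. Of 10 markers of the melanocyte lineage, 9 had a probe set, and only SOX10, ERBB3 and S100B were above the filter. MITF and PMEL were among those that were not. No keratinocyte or endothelial marker was above it, of 9 with a probe set for each type. FBLN1 was the only fibroblast marker above it, of 8, and CD68 the only leukocyte marker, of 9. SOX10 was 0.58 ± 0.13 higher at 468 nM than in DMSO after 24 h (limma adjusted p = 8.51e-04), and the difference at 4 h was -0.73 ± 0.13 (limma adjusted p = 4.31e-04). CD68 was 0.81 ± 0.17 higher at 468 nM than in DMSO at 4 h (limma adjusted p = 0.00144) and differed by -0.02 at 24 h. It was also 0.71 ± 0.17 higher at 75 nM at 4 h (limma adjusted p = 0.0405), and ERBB3 was 0.31 ± 0.12 higher at 468 nM after 24 h (limma adjusted p = 0.0324). Whether these markers had a part in the pore gene results was not tested.

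After 24 h at 468 nM, 18 of the 28 tested pore genes fell and 1 rose against DMSO. The called genes were spread over the pore: 7 of 9 members of the Y complex, all 4 tested members of the inner ring, the membrane protein NDC1, the channel protein NUP58, 3 of 7 members of the cytoplasmic side, and NUP50 and NUP153 of the basket were lower. TPR, the scaffold of the basket, was the only member that was higher. Across all genes tested, 45.6% were called in this comparison, 25.1% as lower and 20.4% as higher, against 64.3% of the pore genes as lower and 3.57% as higher. Without NUP50, 17 of 27 (63%) were lower. The median difference of the pore genes was -0.335 (-0.321 without NUP50), against -0.019 over all genes tested. The arrays of 14 pore genes (50%) did not overlap, with every 468 nM array below every DMSO array, which held for 17.1% of all genes. NUP50 is among these 14. Fewer cells with a transcript and less of it per cell cannot be told apart in such bulk RNA.

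The mean over the 28 pore genes on each array was 7.80, 7.89, 7.78, 7.86 and 7.78 at 468 nM after 24 h, against 8.28, 8.19, 8.24 and 8.12 in DMSO. The 468 nM arrays all lay below the lowest DMSO array. At 75 nM after 24 h the mean was 8.09, 8.15, 8.10, 8.20 and 8.13, which overlapped the DMSO arrays and stayed above every 468 nM array. At 4 h the means of the 3 treatments lay within one range, with 8.29 to 8.44 in DMSO, 8.24 to 8.40 at 75 nM and 8.21 to 8.33 at 468 nM.

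**Figure D1:**
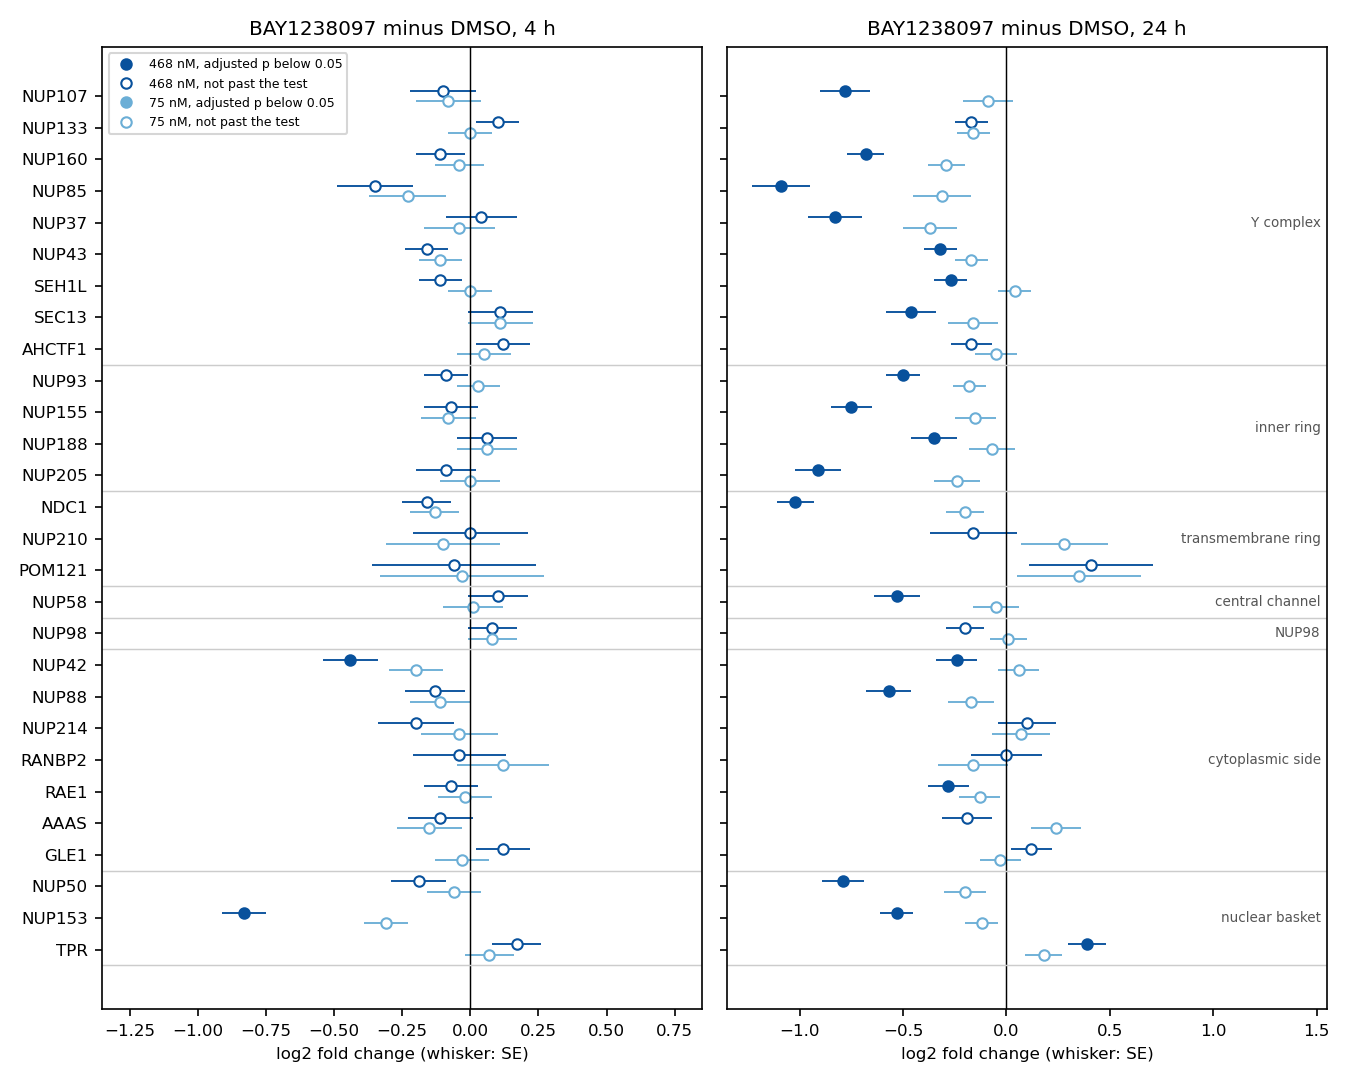
log2 difference of each of the 28 tested pore genes between BAY1238097 and DMSO (horizontal axis; whiskers are standard errors) at 4 h (left) and 24 h (right), for 468 nM (dark) and 75 nM (light), grouped by subcomplex down the page. Filled points have a limma adjusted p below 0.05: 2 dark points at 4 h (NUP153 and NUP42), 19 at 24 h, and no light point at either time.

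The stretches of DNA just before the starts of 4 of these genes are shown, because the 4 differ in direction and timing: NUP153 fell by 4 h, NDC1 and NUP107 were called only at 24 h, and TPR rose. RefSeq windows on GRCh38.p14 were matched for 28 of the 31 genes by symbol, and NUP43, GLE1 and AHCTF1 were not matched. Each sequence is the 250 bases before the gene's start, written 5′ to 3′ on the gene's own strand, with capitals at the matches to the motifs listed after them. NUP153 lies at chr6:17706926-17707175 on the minus strand, NDC1 at chr1:53838297-53838546 on the minus strand, NUP107 at chr12:68686728-68686977 on the plus strand and TPR at chr1:186375254-186375503 on the minus strand.
NUP153: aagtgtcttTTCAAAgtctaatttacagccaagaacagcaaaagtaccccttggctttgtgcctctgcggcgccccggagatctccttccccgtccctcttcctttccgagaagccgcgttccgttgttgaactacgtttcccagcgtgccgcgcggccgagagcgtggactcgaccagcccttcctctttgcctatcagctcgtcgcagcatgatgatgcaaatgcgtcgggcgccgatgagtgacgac
NDC1: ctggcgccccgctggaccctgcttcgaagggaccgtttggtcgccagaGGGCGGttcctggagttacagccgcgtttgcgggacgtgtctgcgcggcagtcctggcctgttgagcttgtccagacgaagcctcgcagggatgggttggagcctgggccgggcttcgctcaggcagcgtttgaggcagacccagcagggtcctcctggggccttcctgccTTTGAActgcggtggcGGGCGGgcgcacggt
NUP107: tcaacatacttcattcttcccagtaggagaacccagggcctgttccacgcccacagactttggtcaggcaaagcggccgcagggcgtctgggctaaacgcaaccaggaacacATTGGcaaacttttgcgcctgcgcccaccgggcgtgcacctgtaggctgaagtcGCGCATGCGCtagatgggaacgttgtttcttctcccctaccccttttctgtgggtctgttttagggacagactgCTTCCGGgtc
TPR: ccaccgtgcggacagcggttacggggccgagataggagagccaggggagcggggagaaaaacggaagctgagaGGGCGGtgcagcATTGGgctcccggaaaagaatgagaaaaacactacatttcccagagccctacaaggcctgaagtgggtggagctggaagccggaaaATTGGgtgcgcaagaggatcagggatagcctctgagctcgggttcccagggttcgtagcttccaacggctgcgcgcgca

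Both strands were searched for 10 short motifs, and a match is a match of letters and not a site of binding. NUP153 held 1 match to the CHR element (TTTGAA, read here as TTCAAA), which began 241 bases before the start. NDC1 held GC boxes (GGGCGG) at 202 and 15 bases before the start and a CHR element at 31 bases. NUP107 held a CCAAT box (CCAAT, read here as ATTGG) at 138 bases, an NRF1 motif, its capitals the longest run in that sequence, at 84 bases and an ETS core (CCGGAAG, on the opposite strand) at 10 bases. TPR held a GC box at 177 bases and CCAAT boxes at 165 and 79 bases, both read as ATTGG. Over the 28 matched pore genes, 12 (42.9%) held the ETS core, against 10.2% of 27305 genes with a window of the same length. The NRF1 motif was held by 3 (10.7%), against 1.28%, and the cyclic AMP response element (TGACGTCA) by 3 (10.7%), against 2.03%. The CHR element was held by 7 (25%), against 16.1%. The GC box in 14 (50%, against 46.2%), the CCAAT box in 10 (35.7%, against 37%) and the E-box CACGTG in 2 (7.14%, against 7.73%) were held by shares close to those of all genes. TATAAA was held by NUP93 alone (3.57%, against 13%), and the E2F forms TTTCCCGC and TTTGGCGC by no pore gene, against 1.7% and 0.681% of all genes. The pore windows had a median GC content of 62.1%, against a median of 58.0% over all genes. The shares were not adjusted for GC content. The 28 matched pore genes had 36 windows in all. They are not the same as the 28 tested, since they include NUP35, NUP54 and NUP62. NUP35 and NUP54 are among those with the ETS core. The 27305 genes were not limited to those tested on the arrays. Whether the pore shares differ from those of other expressed genes was therefore not tested.

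The Y complex, the largest subcomplex, had the most called genes at 24 h, with 7 of 9 lower. By share the inner ring was ahead, with 4 of 4 tested genes lower. In the Y complex the median difference between 468 nM and DMSO was -0.459. NUP85, NUP107 and NUP160 are structural members of its stem and arms, and NUP37 is a small member of the same complex. NUP85 measured 6.30, 5.82, 5.97, 6.86 and 6.36 at 468 nM after 24 h, against 7.49, 7.34, 7.30 and 7.26 in DMSO. Every treated array was below every DMSO array, and replicate 4 lay nearest to DMSO. It fell by 1.09 ± 0.14, a 2.12-fold lower intensity (limma adjusted p = 8.53e-07), and had the largest difference of the tested pore genes in this comparison.

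NUP107, after which the whole complex is often named, measured 7.37, 7.69, 7.59, 8.03 and 7.47 at 468 nM after 24 h, against 8.29, 8.49, 8.67 and 8.21 in DMSO. The groups did not overlap, and replicate 4 was again the treated array nearest to DMSO. NUP107 fell by 0.78 ± 0.12 (limma adjusted p = 4.62e-06). NUP160 measured 8.30, 8.42, 8.40, 8.67 and 8.39 at 468 nM, against 9.34, 9.05, 9.19 and 8.90 in DMSO, and fell by 0.68 ± 0.09 (limma adjusted p = 2.01e-06). Its groups did not overlap either.

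NUP37 measured 5.66, 5.70, 5.97, 6.37 and 5.50 at 468 nM after 24 h, against 6.67, 6.84, 6.75 and 6.43 in DMSO. The groups did not overlap, although replicate 4 lay just below the lowest DMSO array. NUP37 fell by 0.83 ± 0.13 (limma adjusted p = 1.29e-05). SEC13, which also serves in the coat of vesicles that leave the endoplasmic reticulum, fell by 0.46 ± 0.12 (limma adjusted p = 0.00245) with no overlap. NUP43 fell by 0.32 ± 0.08 (limma adjusted p = 0.00273) and SEH1L, which is shared with a complex that senses amino acids, by 0.27 ± 0.08 (limma adjusted p = 0.01). The arrays of both overlapped those of DMSO.

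NUP133, at the end of the stem of the Y, measured 8.25 to 8.29 at 468 nM after 24 h and 8.15 to 8.58 in DMSO, and its difference of -0.17 ± 0.08 did not pass the test (limma adjusted p = 0.0842). The treated arrays were tightly grouped, and the DMSO spread came from replicate 4. Without that DMSO array the difference was -0.26 and passed (limma adjusted p = 0.00459). AHCTF1, also called ELYS, which brings the Y complex to chromatin after mitosis, differed by -0.17 ± 0.10 (limma adjusted p = 0.194). Its highest treated array was replicate 2 at 9.45, and without it AHCTF1 differed by -0.26 and passed (limma adjusted p = 0.0242).

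The inner ring had the lowest median among the subcomplexes with several tested members, -0.623, and its 4 tested members all fell after 24 h at 468 nM. NUP205 and NUP188 are large related scaffold proteins, NUP93 links the ring to the central channel, and NUP155 is its link towards the membrane. NUP205 measured 8.36, 8.71, 8.25, 8.67 and 8.55 at 468 nM, against 9.62, 9.29, 9.49 and 9.24 in DMSO, and fell by 0.91 ± 0.11 (limma adjusted p = 1.58e-07). All treated arrays were below all DMSO arrays by a wide gap.

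NUP155 measured 9.19, 9.40, 9.06, 9.27 and 9.07 at 468 nM after 24 h, against 10.16, 9.78, 10.02 and 9.83 in DMSO. It fell by 0.75 ± 0.10 (limma adjusted p = 2.21e-06), with no overlap. NUP93 measured 8.92, 9.14, 8.96, 8.74 and 9.13 at 468 nM, against 9.55, 9.47, 9.35 and 9.53 in DMSO, and fell by 0.50 ± 0.08 (limma adjusted p = 2.40e-05). Here replicate 4 was the lowest of the treated arrays, whereas it was the highest for NUP85, NUP107, NUP160 and NUP37. NUP188 fell by 0.35 ± 0.11 (limma adjusted p = 0.0121), and this call was lost without DMSO replicate 1, where the difference was -0.29 (limma adjusted p = 0.0533).

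NUP35, the inner ring member that can bend membranes, was too dim for the filter. Its log2 intensity was 3.52, 3.06, 3.34, 4.08 and 3.09 at 468 nM after 24 h, against 4.38, 4.47, 5.02 and 4.42 in DMSO. The groups did not overlap. In a fit without the filter its difference was -1.15 ± 0.17 (limma adjusted p = 2.11e-05). The gene is not counted among the 18.

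Of the transmembrane genes, NDC1 had the smallest adjusted p of any pore gene. NDC1 is needed to insert new pores into the membrane. It measured 8.78, 9.05, 8.72, 8.97 and 9.10 at 468 nM after 24 h, against 10.07, 9.95, 9.82 and 9.95 in DMSO. The gap between the groups was larger than the range within either, and NDC1 fell by 1.02 ± 0.09, 2.03-fold (limma adjusted p = 2.34e-09). At 75 nM after 24 h NDC1 measured 9.81, 9.79, 9.72, 9.69 and 9.74, all below the lowest DMSO array, with a difference of -0.20 ± 0.09 that did not pass the test (limma adjusted p = 0.285).

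The other transmembrane genes gave no call against DMSO. NUP210 differed by -0.16 ± 0.21 at 468 nM after 24 h (limma adjusted p = 0.548). POM121 ranged from 4.61 to 6.98 at 468 nM, against 5.29 to 5.67 in DMSO, the widest spread of any tested pore gene, and its difference was 0.41 ± 0.30 (limma adjusted p = 0.28). Its lowest array was replicate 4, and without it POM121 was 0.73 higher and called (limma adjusted p = 0.0217). POM121 has a near-identical copy, POM121C, so its probe set may read both.

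NUP58 was the only central channel gene with a tested probe set. It measured 7.03, 7.53, 7.21, 7.48 and 7.12 at 468 nM after 24 h, against 7.72, 7.76, 8.05 and 7.67 in DMSO. The groups did not overlap, and NUP58 fell by 0.53 ± 0.11 (limma adjusted p = 3.74e-04). Its partner NUP54 was below the filter and differed by -0.33 ± 0.15 in the fit without it (limma adjusted p = 0.153). NUP98, whose precursor is cut into the channel protein NUP98 and the Y complex member NUP96, differed by -0.20 ± 0.09 and did not pass (limma adjusted p = 0.0586). It missed the threshold narrowly and was called lower in 8 of 36 alternatives.

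On the cytoplasmic side 3 of 7 genes were called, with a median difference of -0.189. NUP88, which holds NUP214 at the pore, measured 7.74, 7.64, 7.78, 8.24 and 7.79 at 468 nM after 24 h, against 8.27, 8.52, 8.58 and 8.26 in DMSO. Replicate 4 stood apart from the other treated arrays and just below the lowest DMSO array. NUP88 fell by 0.57 ± 0.11 (limma adjusted p = 2.24e-04). RAE1, an mRNA export factor that binds NUP98, fell by 0.28 ± 0.10 (limma adjusted p = 0.0208), and NUP42, a partner of GLE1, by 0.24 ± 0.10 (limma adjusted p = 0.0468).

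Both of the last calls were close to the threshold. The RAE1 call was lost on leaving out any of 3 arrays at 24 h (468 nM replicate 2, DMSO replicate 2 or DMSO replicate 3), with adjusted p up to 0.118 in limma. For NUP42, 468 nM replicate 2 was far below the others at 5.16, and without it the difference was -0.15 (limma adjusted p = 0.162). Its call was lost in 21 of 35 alternatives. NUP214, which gathers mRNA export factors, differed by 0.10 ± 0.14 (limma adjusted p = 0.596), GLE1, which activates the helicase of mRNA export, by 0.12 ± 0.10 (limma adjusted p = 0.339), and AAAS, mutated in triple A syndrome, by -0.19 ± 0.12 (limma adjusted p = 0.184). RANBP2, the SUMO ligase of the cytoplasmic filaments, ranged from 7.65 to 8.51 at 468 nM, against 7.66 to 8.15 in DMSO, and did not pass the test. RANBP2 belongs to a family of near-identical RGPD genes, so its value may include theirs.

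The basket genes went in both directions. TPR forms the fibres of the basket and keeps chromatin clear of the pore. It measured 9.48, 9.74, 9.41, 9.51 and 9.46 at 468 nM after 24 h, against 9.14, 8.96, 9.31 and 9.10 in DMSO. All treated arrays were above all DMSO arrays, and TPR rose by 0.39 ± 0.09, 1.31-fold (limma adjusted p = 7.98e-04). NUP50, a cofactor of import that helps release cargo from importin alpha, measured 4.04, 3.99, 4.35, 4.13 and 3.82 at 468 nM, against 5.05, 4.60, 4.90 and 4.87 in DMSO. The groups did not overlap and the difference was -0.79 ± 0.10 (limma adjusted p = 6.71e-07), but at 24 h only 1 DMSO array was above 5, so the gene was tested through its 4 h arrays.

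NUP153, which anchors the basket to the pore, was 1 of 2 pore genes called at 4 h. At 4 h it measured 9.61, 9.51, 9.53, 9.62 and 9.48 at 468 nM, against 10.40, 10.47, 10.48 and 10.18 in DMSO. The groups were far apart, and NUP153 fell by 0.83 ± 0.08 (limma adjusted p = 2.34e-08). At 24 h it measured 9.32, 9.66, 9.35, 9.43 and 9.36 at 468 nM, against 9.90, 9.97, 9.99 and 9.94 in DMSO. The groups again did not overlap, and NUP153 fell by 0.53 ± 0.08 (limma adjusted p = 4.44e-06).

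**Figure D2:**
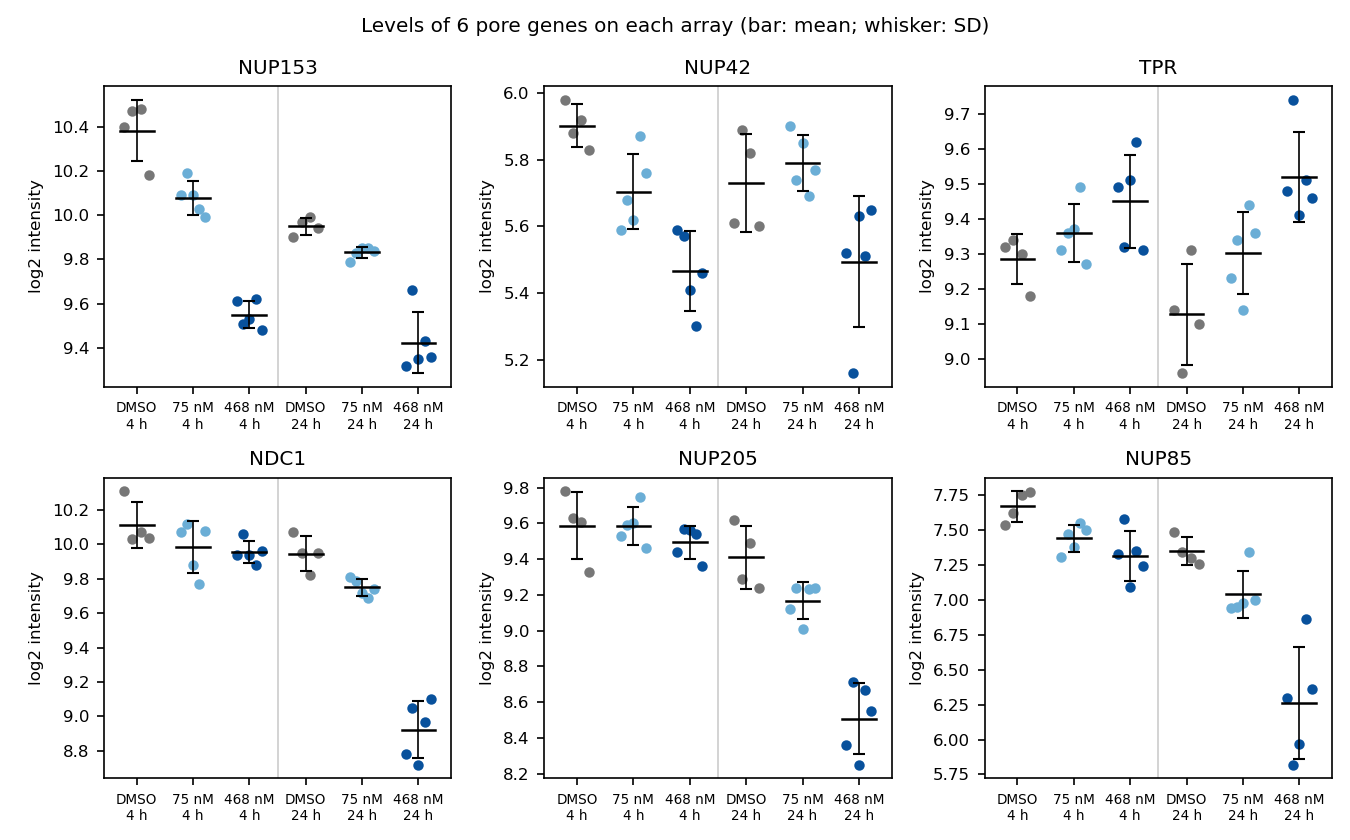
log2 intensity (vertical axis, a separate range for each gene) of NUP153, NUP42, TPR, NDC1, NUP205 and NUP85 on every array, in DMSO, 75 nM and 468 nM at 4 h and then at 24 h. Points are single arrays, bars are group means and whiskers are SDs (n = 4 for DMSO, 5 for each dose). NUP153 at 468 nM was already below all DMSO arrays at 4 h, whereas NDC1, NUP205 and NUP85 at 468 nM separated from DMSO at 24 h.

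At 4 h only 2 of the 28 pore genes were called at 468 nM against DMSO, NUP153 and NUP42, both lower. Over all genes tested 10.9% were called, 6.95% as lower and 3.96% as higher, so 7.14% of the pore genes called lower was close to the background. NUP42 measured 5.59, 5.57, 5.41, 5.30 and 5.46 at 468 nM, against 5.98, 5.88, 5.92 and 5.83 in DMSO. The groups did not overlap, and NUP42 fell by 0.44 ± 0.10 (limma adjusted p = 0.00276). NUP85 differed by -0.35 ± 0.14 (limma adjusted p = 0.122), and the other 25 lay between -0.20 and 0.17. The pore gene median was -0.081, against -0.027 over all genes.

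At 75 nM no pore gene was called against DMSO at either time by limma. At 4 h 0.679% of all genes were called, and 2 pore genes had an unadjusted p below 0.05, which 8.72% of all genes had. They were NUP153, with a difference of -0.31 ± 0.08 (limma adjusted p = 0.0666), and NUP42, with -0.20 ± 0.10 (limma adjusted p = 0.569). NUP153 measured 10.09, 10.19, 10.09, 10.03 and 9.99 at 75 nM, against 10.40, 10.47, 10.48 and 10.18 in DMSO. DMSO replicate 4 was the 1 control within reach of the treated arrays, and without it the difference was -0.37 and called (limma adjusted p = 0.0239).

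At 24 h 0.872% of all genes were called at 75 nM. Here 8 pore genes (28.6%) had an unadjusted p below 0.05, against 15.9% of all genes. Of these, 7 were lower (NUP160, NUP85, NUP37, NUP43, NUP93, NUP205 and NDC1), with differences of -0.17 to -0.37 and adjusted p of 0.126 to 0.305 in limma, and AAAS was 0.24 ± 0.12 higher (limma adjusted p = 0.301). The difference was below 0 in 20 of the 28, against 53.1% of all genes, and the median was -0.124, against -0.016 over all genes. In 5 pore genes (17.9%), NUP37, NUP93, NUP205, NDC1 and NUP153, every 75 nM array lay below every DMSO array, against 4.18% of all genes. The gaps were small. The highest 75 nM and lowest DMSO arrays stood at 6.42 and 6.43 for NUP37, 9.34 and 9.35 for NUP93, and 9.81 and 9.82 for NDC1. They were 9.85 and 9.90 for NUP153, and for NUP205 both rounded to 9.24.

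Both doses share their DMSO arrays, so the doses were also set against each other. At 24 h 18 pore genes were lower at 468 nM than at 75 nM and none was higher, where 30.8% of all genes were called, 17.4% of all genes as lower and 13.4% as higher. Without NUP50 the count was 17 of 27. The median difference was -0.317, against -0.010 over all genes. NDC1 had the largest difference, -0.82 ± 0.09 (limma adjusted p = 7.75e-08), followed by NUP85 with -0.78 ± 0.13 (limma adjusted p = 7.01e-05). NUP98 and AAAS were called here although they were not called against DMSO at either dose. AAAS measured 6.33 to 6.69 at 468 nM, against 6.82 to 7.02 at 75 nM, with a difference of -0.43 ± 0.11 (limma adjusted p = 0.00345). At 75 nM AAAS stood above DMSO and at 468 nM below it in mean, without a call against DMSO at either dose. The NUP98 difference of -0.21 ± 0.08 was at the threshold (limma adjusted p = 0.0491) and lost its call in 25 of 36 alternatives. SEC13 and NUP188 were also near it and lost theirs in 12 of 35 and 11 of 36. NUP43, RAE1 and TPR, called at 468 nM against DMSO, were not called between the doses, TPR with a difference of 0.22 ± 0.08 (limma adjusted p = 0.0504). It missed the threshold narrowly and was called higher in 10 of 36 alternatives.

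At 4 h the only pore gene called between the doses was NUP153, which was 0.53 ± 0.07 lower at 468 nM than at 75 nM (limma adjusted p = 1.00e-04), where 2.56% of all genes were called. Its means at 4 h were 10.38 ± 0.14 in DMSO (SD, n = 4), 10.08 ± 0.08 at 75 nM and 9.55 ± 0.06 at 468 nM (SD, n = 5 each). At 24 h the means were 9.95 ± 0.04 in DMSO, 9.83 ± 0.02 at 75 nM and 9.42 ± 0.14 at 468 nM. Group means of the pore genes were also followed over DMSO, 75 nM and 468 nM in that order. At 24 h 18 pore genes, NUP50 among them, went down at each step, 3 went up (TPR among them) and 7 did neither. At 4 h the counts were 12, 4 and 12. These counts were not made over all genes, so whether they are particular to the pore genes was not tested.

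**Figure D3:**
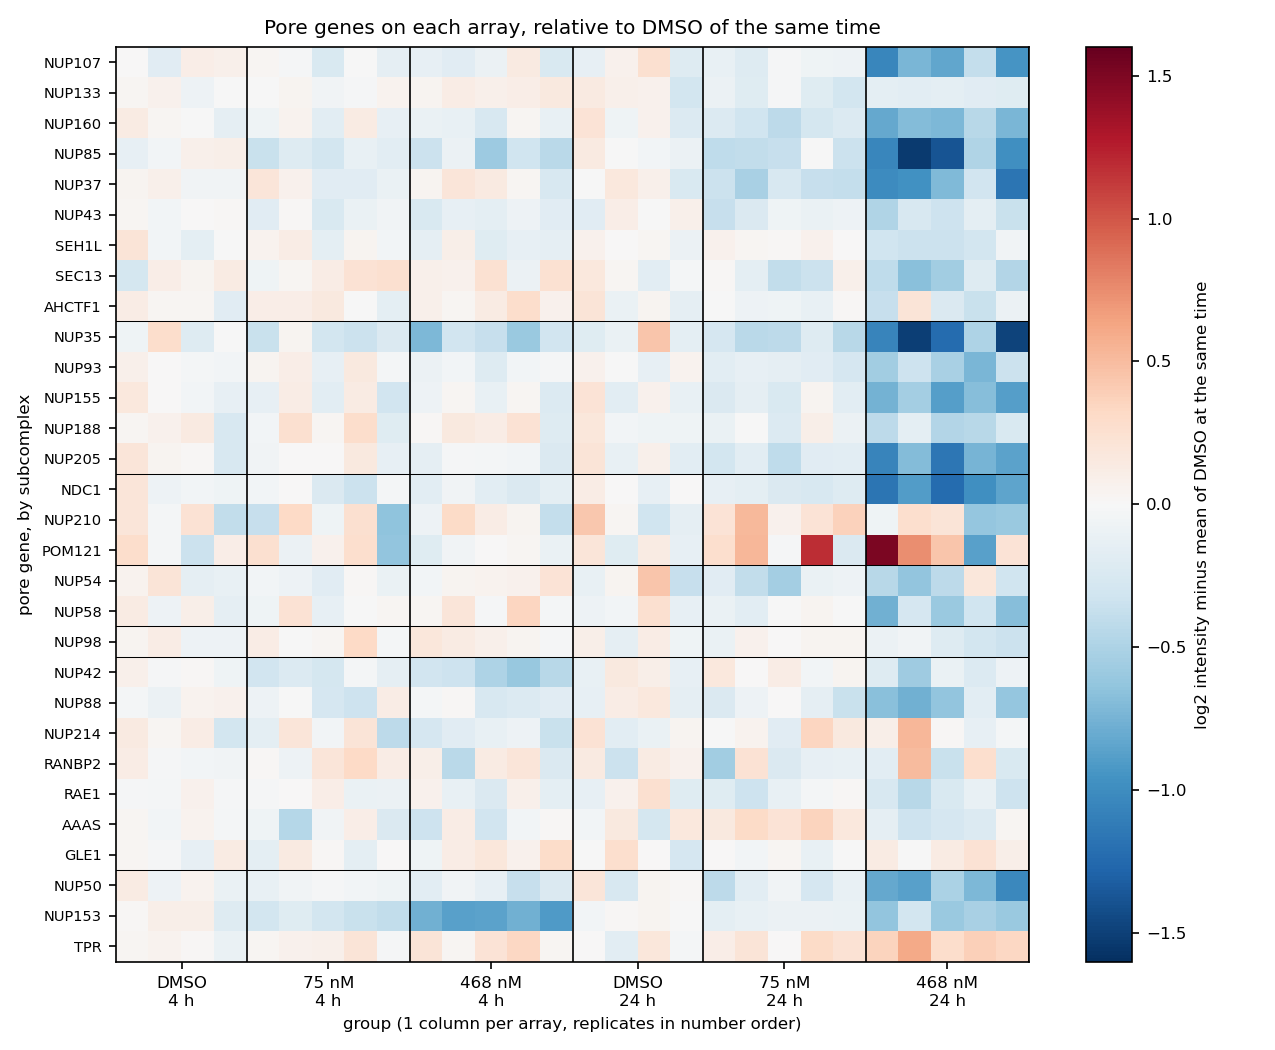
log2 intensity minus the mean of the DMSO arrays of the same time (colour), for 30 pore genes down the page (grouped by subcomplex; NUP35 and NUP54 are shown although they were below the filter) and 28 arrays across, in DMSO, 75 nM and 468 nM at 4 h and then at 24 h. The 468 nM, 24 h block is blue for most genes of the Y complex and inner ring and red for TPR, and at 4 h the NUP153 line is the darkest blue.

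Whether the response to 468 nM differed between 24 h and 4 h was tested as an interaction. For 11 pore genes the difference from DMSO was called more negative at 24 h than at 4 h, and for 1 it was called less negative. Over all genes tested 23.5% were called in this test, 12.7% in the negative direction and 10.8% in the positive. NDC1 changed most clearly, with -0.86 ± 0.13 (limma adjusted p = 3.14e-05), and NUP37 by the largest amount, -0.87 ± 0.19 (limma adjusted p = 0.00141). The others were 4 of the Y complex (NUP107, NUP160, NUP85 and SEC13), 3 of the inner ring (NUP93, NUP155 and NUP205), NUP58 and NUP50. NUP188 of the inner ring was not called here but was in 8 of 36 alternatives. NUP50 was tested through its higher 4 h arrays, which favours this test, and without it the count was 10. No gene of the cytoplasmic side was called, but NUP88 was at the threshold with -0.44 ± 0.16 (limma adjusted p = 0.0502) and was called in 10 of 36 alternatives. The one in the positive direction was NUP153, whose response at 24 h was 0.31 ± 0.11 smaller than at 4 h (limma adjusted p = 0.0415). That call was near the threshold and was lost in 13 of 36 alternatives, with adjusted p up to 0.169 in limma.

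In DMSO itself NUP153 fell by 0.43 ± 0.08 at 24 h against 4 h (limma adjusted p = 0.00299), and it was the only pore gene called in that comparison, where 5.23% of all genes were called. NUP188 was called as well in 11 of 36 alternatives and SEH1L in 4 of 36. At 24 h 22 of the 28 pore genes were below their 4 h level in DMSO, against 49.9% of all genes, with a median of -0.171, against 0.001. In 6 (21.4%) all 24 h DMSO arrays were below all 4 h DMSO arrays, against 6.65% of all genes. NUP50 is among the 22 and among the 6, and its passing the filter through 4 h arrays favours such a fall. Without NUP50 the median was -0.168. NUP37 was 0.37 ± 0.14 higher at 24 h than at 4 h in DMSO, with no overlap, and did not pass the test (limma adjusted p = 0.11). With the arrays levelled on 8 reference genes, the median of all genes in this comparison was 0.153, NUP153 differed by -0.28 without a call (limma adjusted p = 0.119) and NUP37 by 0.53 with one (limma adjusted p = 0.0245). For 75 nM no pore gene was called in the interaction test by limma, where 0.0323% of all genes were called, and 1 had an unadjusted p below 0.05, which 6.84% of all genes had.

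The transport machinery that works with the pore was described by 5 lists with 67 genes, of which 59 were tested. After 24 h at 468 nM 30 of them were lower and 4 higher than in DMSO, with a median of -0.259, where 25.1% of all genes were lower and 20.4% higher. These shares are the background for each list. The exportins, which carry cargo out of the nucleus, were lower in 5 of 7, with a median of -0.518. XPOT, the exporter of tRNA, fell by 0.81 ± 0.08 (limma adjusted p = 1.41e-08), XPO1, the main exporter of proteins, by 0.76 ± 0.10 (limma adjusted p = 6.46e-07), and XPO4 by 0.63 ± 0.15 (limma adjusted p = 0.00168). Of the genes of the Ran cycle, 4 of 5 tested were lower, with a median of -0.410. RANBP1, which helps to strip Ran from export complexes, fell by 1.14 ± 0.13 (limma adjusted p = 1.35e-07), and RANGAP1, the activator of Ran's GTPase, by 0.81 ± 0.11 (limma adjusted p = 1.72e-06).

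Importins and transportins were lower in 7 of 16 tested, with a median of -0.183, led by IPO4 with -0.96 ± 0.13 (limma adjusted p = 9.71e-07) and TNPO2 with -0.85 ± 0.12 (limma adjusted p = 1.70e-06). The mRNA export factors were split, with 7 lower and 3 higher of 16 tested and a median of -0.083. ALYREF, an adaptor that loads mRNA onto the export receptor, fell by 1.31 ± 0.13 (limma adjusted p = 8.62e-09), the helicase DDX39A by 1.28 ± 0.16 (limma adjusted p = 4.85e-07) and NXT1, a partner of the export receptor, by 1.23 ± 0.23 (limma adjusted p = 7.78e-05). ENY2, a subunit of a complex that sits at the basket, rose by 0.53 ± 0.12 (limma adjusted p = 0.00107). Of the lamina and envelope genes, 7 were lower and 1 higher of 15 tested. TMPO, a lamin-binding membrane protein, fell by 1.33 ± 0.10 (limma adjusted p = 7.48e-11), LMNB2 by 1.11 ± 0.10 (limma adjusted p = 6.27e-09) and LMNB1 by 0.91 ± 0.09 (limma adjusted p = 1.24e-08), both B-type lamins, and SUN1 rose by 0.44 ± 0.10 (limma adjusted p = 0.00115).

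At 4 h at 468 nM 3 of the 59 were called, where 10.9% of all genes were: PCID2, a partner of ENY2, fell by 0.57 ± 0.11 (limma adjusted p = 7.21e-04), LMNB1 fell by 0.31 ± 0.09 (limma adjusted p = 0.0206), and ENY2 rose by 0.49 ± 0.12 (limma adjusted p = 0.00819).

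**Figure D4:**
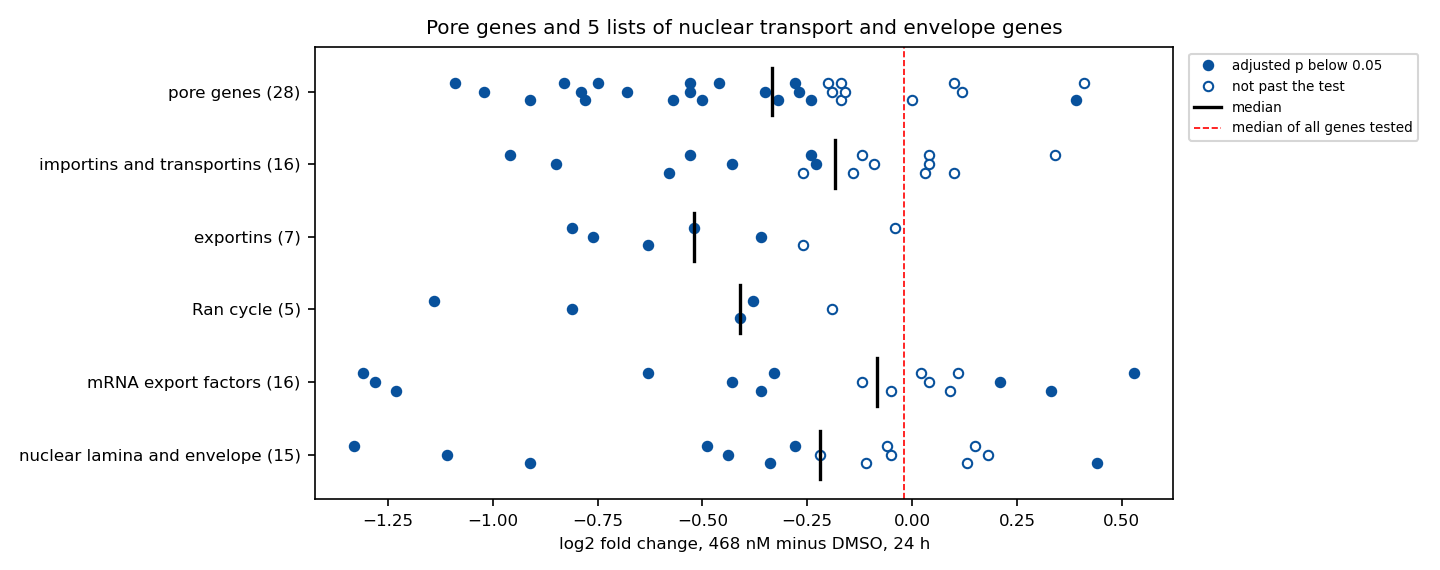
log2 difference between 468 nM and DMSO after 24 h (horizontal axis) of the 28 pore genes and of the tested genes of 5 lists of nuclear transport and envelope genes, 1 point a gene (filled where the limma adjusted p was below 0.05). Black bars are list medians (-0.335 for the pore genes, -0.518 for the exportins and -0.083 for mRNA export factors), and the dashed line is the median of all genes tested, -0.019.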

How the data were processed

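RNA of 28 samples of CHL-1 cells was measured on 1-colour Affymetrix arrays. Linear intensity values of 53617 probe sets (0 missing) were deposited, made with RMA per the submitters' processing notes. RMA corrects background, makes the distributions of the arrays alike and merges each set's probes, which hides any shift common to nearly all transcripts. Neither RMA's version nor the platform's genome build is given in the sources used here. The number of arrays limits the precision.

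Values were transformed to log2. Probe sets were named from the platform's annotation: 23871 had 1 gene symbol, 1842 had several and stayed unnamed, and 27904 were not listed. Symbols were updated through a RefSeq gene table (22569 by gene ID, 733 by current symbol, 565 by older symbol, 4 kept). Among several probe sets naming 1 gene alone, the brightest on average stood for the gene. Means of all 6 groups were fitted together with limma 3.58.1 in R 4.3.3, with 22 residual degrees of freedom and 3.84 added by its variance prior, and adjusted over all 9285 genes tested. No pair of arrays held identical values. The fit was also run on simulated, independent values with far fewer changed genes than here, and no result rests on it.

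Alternatives were a repeated quantile normalisation, levelling the arrays on reference genes, no filter, a filter at 7, only the groups compared, the mean of all probe sets of a gene, a trend with robust variance, a block for title codes, and leaving out each array. No pore gene had more than 1 probe set of its own, so the mean of all probe sets left its difference unchanged. Leaving out an array of a group that was not compared did so too. Such runs could move a call only through the estimated spread or the adjustment over all genes. The counts of alternatives include them.

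The pore genes and the 5 lists were chosen with earlier results of these data known. Values on each array are given for 10 genes with the smallest adjusted p in a comparison with DMSO and for NUP58 and NUP88, which stand for subcomplexes otherwise without one. Of the lists, at most the 3 called genes with the largest differences in a comparison are named, with ENY2 and SUN1 at 24 h in addition. ENY2 and SUN1 at 24 h, TPR, NUP42, NUP35, the motifs and the 4 printed sequences were singled out after the values were seen. Replicate numbers serve as names and pair nothing. Protein sequences were not used here.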

Additional observations from a re-analysis of the deposited data

Results flagged for a closer look

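Single arrays stood apart in 10 of 168 groups of arrays of the pore genes, where a rule that picks 1 in 20 groups by chance would pick about 8. In 468 nM at 24 h these were NUP88 replicate 4 at 8.24 (next 7.79), SEH1L replicate 5 at 9.95 (next 9.71) and NUP42 replicate 2 at 5.16 (next 5.51). In 75 nM at 24 h they were NUP85 replicate 4 at 7.34, above the others, and NUP153 replicate 1 at 9.79 (next 9.83). SEH1L replicate 2 stood at 10.38 in 468 nM at 4 h (next 10.16). Among DMSO arrays, NUP133 replicate 4 stood at 8.15 (next 8.51), NUP188 replicate 1 at 9.59 (next 9.37) and RANBP2 replicate 2 at 7.66 (next 8.07) at 24 h, and NDC1 replicate 1 at 10.31 (next 10.07) at 4 h.

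The difference between 468 nM and DMSO depended on time for 12 pore genes in limma's interaction test, as the difference at 24 h minus that at 4 h. It was -0.68 for NUP107 (limma adjusted p = 0.0035), -0.57 for NUP160 (limma adjusted p = 0.00308), -0.73 for NUP85 (limma adjusted p = 0.00894), -0.87 for NUP37 (limma adjusted p = 0.00141) and -0.57 for SEC13 (limma adjusted p = 0.0145) in the Y complex. In the inner ring it was -0.41 for NUP93 (limma adjusted p = 0.012), -0.67 for NUP155 (limma adjusted p = 0.00165) and -0.81 for NUP205 (limma adjusted p = 3.00e-04). It was -0.86 for NDC1 (limma adjusted p = 3.14e-05), -0.63 for NUP58 (limma adjusted p = 0.00484) and -0.60 for NUP50 (limma adjusted p = 0.00334). NUP50 was tested through its higher 4 h arrays, which favours this test. NUP153 alone had a positive value, 0.31 (limma adjusted p = 0.0415).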

How the results depend on the processing

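Of the 19 pore genes called at 468 nM against DMSO after 24 h, 14 were called in every alternative run (35 for NUP37, SEC13 and NUP50, which the filter at 7 removes, and 36 for the others) and 5 (NUP43, SEH1L, NUP188, NUP42 and RAE1) were lost in at least 1. The count was 19 with the arrays levelled on reference genes, 20 after a repeated quantile normalisation, 18 without the filter, 16 with the filter at 7 and 15 with only the groups compared, and 17 to 20 on leaving out single arrays. These counts are not always of the same genes. The 18 without the filter include NUP35, which the main fit did not test, while NUP42 and RAE1 lost their calls there. Levelling moved the median of all genes to -0.102 in this comparison, -0.15 at 468 nM after 4 h and -0.123 at 75 nM after 24 h. Between the doses at 24 h, 12 of 18 calls were kept in every alternative run (12 genes called when levelled; 15 to 19 on leaving out single arrays), and 9 of 12 in the interaction for 468 nM (11 to 14). No called value changed direction.

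At 75 nM after 4 h, 1 gene (NUP153) was called with the filter at 7 and with a trend and robust variance, and 0 to 1 on leaving out single arrays (1 without DMSO replicate 4 of 4 h or 468 nM replicate 2 of 24 h). At 468 nM after 4 h, 1 was called with the filter at 7, which removes NUP42, and 2 to 3 on leaving out single arrays. In DMSO over time the count was 2 after a repeated quantile normalisation, 3 with the filter at 7, 0 with only the groups compared, 3 with a trend and robust variance, and 1 to 3 on leaving out single arrays; the cause was not tested. NUP153 was the gene lost with only the groups compared, and NUP188 (called in 11 of 36 alternatives, without a call in the report) the gene added most often.

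The labels do not say that the code numbers in the titles mark batches. Over 66 pairs of arrays with the same run of codes, deviations from the group means correlated with a median r of 0.098 (-0.127 to 0.345). For pairs from different runs the median r was -0.02. The codes were not taken to pair the samples, although 21 of 28 arrays correlated best with their own run. The main fit therefore leaves any effect of the run unmodelled. The run with the lowest codes held no DMSO array, so an effect of that run would fall on treated arrays alone. With the run as a replicate block the counts were 20 at 468 nM and 0 at 75 nM against DMSO after 24 h, 2 and 0 after 4 h, 20 between the doses at 24 h, 13 in the interaction for 468 nM and 4 in DMSO over time.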
